A study of Mus musculus with 60 samples.

Results

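Aminoacyl-tRNA synthetases are the enzymes that join each amino acid to its transfer RNA before the ribosome can use it. The cytosol and the mitochondrion hold separate sets, both encoded in the nucleus, and by convention the symbol of a mitochondrial enzyme ends in 2. Exceptions are Gars (glycine) and Kars (lysine), whose single genes serve both compartments, and Eprs, whose product charges both glutamate and proline. Many cytosolic synthetase genes are known targets of ATF4, the transcription factor made when amino acids run short or when unfolded protein accumulates.

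The genes were taken from the array annotation by symbol: a single capital letter followed by ars, with or without a final 1 or 2, or Eprs, Farsa or Farsb. The rule found 35 probe sets of the 21789 with a single gene symbol, for 34 genes of 19938. There were 18 genes without a final 2, called cytosolic here, and 16 whose symbol ends in 2, called mitochondrial. The brightest probe set stood for each gene, a choice that mattered for Iars alone. Aars (alanine) appears only on a probe set that also lists Exosc6 and was not a member.

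Signals came from 60 Affymetrix arrays of R1 cells, an established mouse embryonic stem cell line. Per the labels the cells grew on feeders, were freed of them and were exposed undifferentiated for 6 h. There were 20 groups of 3 arrays, and DMSO at 0.1% was the solvent control. The labels call these compounds teratogens: penicillamine, dimethadione, fluconazole, topiramate and valproic acid (VPA) at 1 mM, thalidomide at 0.35 mM, dexamethasone at 0.1 mM, retinoic acid at 0.024 mM, methotrexate at 0.028 µM and azacytidine, given as 0.23 µM in titles and 23 µM elsewhere. They call these non-teratogens: chlorthalidone, hydrochlorothiazide, paracetamol and sulfasalazine at 1 mM, glybenclamide at 0.37 mM, metoclopramide at 0.17 mM, ondansetron at 0.054 mM, loratadine at 0.043 mM and clozapine at 0.028 mM. Doses thus differ between compounds. The labels do not say that the 3 arrays of a group came from separate cultures, so p-values measure the spread between these arrays, which may be technical.

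The markers fit undifferentiated cells: the 10 embryonic stem cell markers had a median percentile of 97.9 among the probe sets tested, and the 9 measured feeder fibroblast markers one of 52.7. None of the arrays duplicated another. Signals were least spread on hydrochlorothiazide replicates 1 and 2 (interquartile range 2.97 and 2.99) and on dexamethasone replicate 3 (2.998). They were most spread on sulfasalazine replicates 1 and 2 (3.31 each). The range was 3.24 to 3.27 with loratadine, 3.23 to 3.30 with glybenclamide and 3.11 to 3.23 with DMSO. Penicillamine replicate 2 had the highest median signal of all arrays (7.79, against 7.64 on the other penicillamine arrays). Arrays have no read depth, and 3 per group limits the precision. In bulk RNA, fewer cells of a type and less RNA per cell cannot be told apart.

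Promoter sequence is shown first, because part of the cytosolic group shares a short motif that the choice of genes did not use. RefSeq windows on GRCm38.p6, from 250 bases before to 50 after the start of transcription, were found for 25 of the 34 genes. They were searched on both strands for TGATGNAA, the core of the composite C/EBP-ATF element that ATF4 binds. It was found for 4 of 11 cytosolic genes (36.4%) and for 0 of 14 mitochondrial genes. Of all 27025 genes with a window, 4.51% held it. The 4 genes were Yars, Iars, Tars and Gars. Each was among the 9 genes with a window that rose with loratadine, and 0 of the other 16 had the motif. Below are the 100 bases from 80 before to 20 after the start of each of these 4 genes, 5′ to 3′ along the gene, with the motif in capitals. Sars and Wars2, without the motif, are shown for contrast because they rose and fell with loratadine, and were chosen after their values were seen.
Yars, chr4:129189823-129189922, plus strand: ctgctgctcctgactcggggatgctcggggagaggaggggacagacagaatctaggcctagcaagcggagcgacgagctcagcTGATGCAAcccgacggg
Iars, chr13:49682050-49682149, plus strand: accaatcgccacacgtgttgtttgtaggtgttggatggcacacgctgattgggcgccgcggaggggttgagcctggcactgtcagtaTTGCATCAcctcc
Tars, chr15:11399639-11399738, minus strand: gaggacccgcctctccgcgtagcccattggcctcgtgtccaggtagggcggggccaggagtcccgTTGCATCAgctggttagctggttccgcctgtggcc
Gars, chr6:55037921-55038020, plus strand: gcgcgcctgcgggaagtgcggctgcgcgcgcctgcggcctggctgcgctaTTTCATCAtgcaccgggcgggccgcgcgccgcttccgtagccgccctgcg
Sars, chr3:108445240-108445339, minus strand: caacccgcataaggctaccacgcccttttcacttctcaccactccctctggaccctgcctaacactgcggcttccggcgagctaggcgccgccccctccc
Wars2, chr3:99141010-99141109, plus strand: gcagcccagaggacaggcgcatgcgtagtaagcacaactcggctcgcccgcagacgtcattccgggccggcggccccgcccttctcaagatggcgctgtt
In Yars and Iars the motif lies just after the start, in Tars and Gars before it. A match is a description of letters, not a measured binding site, and a window without it says nothing about the factor.

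Across the 19 compounds, 25 of the 34 genes changed with at least 1 compound and 9 with none. A gene counts as called, and is said to rise or fall, when its Benjamini-Hochberg adjusted p over all 21789 probe sets was under 0.05 in limma. There were 50 calls, 37 higher and 13 lower than DMSO, and they came from 8 compounds. With loratadine, an antihistamine, 16 genes were called, against a background of 19.2% of all probe sets. With glybenclamide, a sulfonylurea, there were 11 (background 9.54%), and with VPA, an antiepileptic and deacetylase inhibitor, also 11 (background 26.5%). With sulfasalazine there were 5 (background 8.9%) and with retinoic acid 4 (background 9.82%). Chlorthalidone, dexamethasone and paracetamol had 1 each, with backgrounds of 2.58%, 6.25% and 8.76%. As shares of the 34 genes, these are 47.1% for loratadine, 32.4% for glybenclamide and for VPA, 14.7% for sulfasalazine, 11.8% for retinoic acid and 2.94% for each of the last 3. Counted in either direction, the shares with VPA, retinoic acid and chlorthalidone lie near their backgrounds, and those with dexamethasone and paracetamol lie below. By direction, VPA had 8.82% of the genes higher and 23.5% lower, against 15.5% and 11% of all probe sets. All comparisons share the same 3 DMSO arrays.

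**Figure D1:**
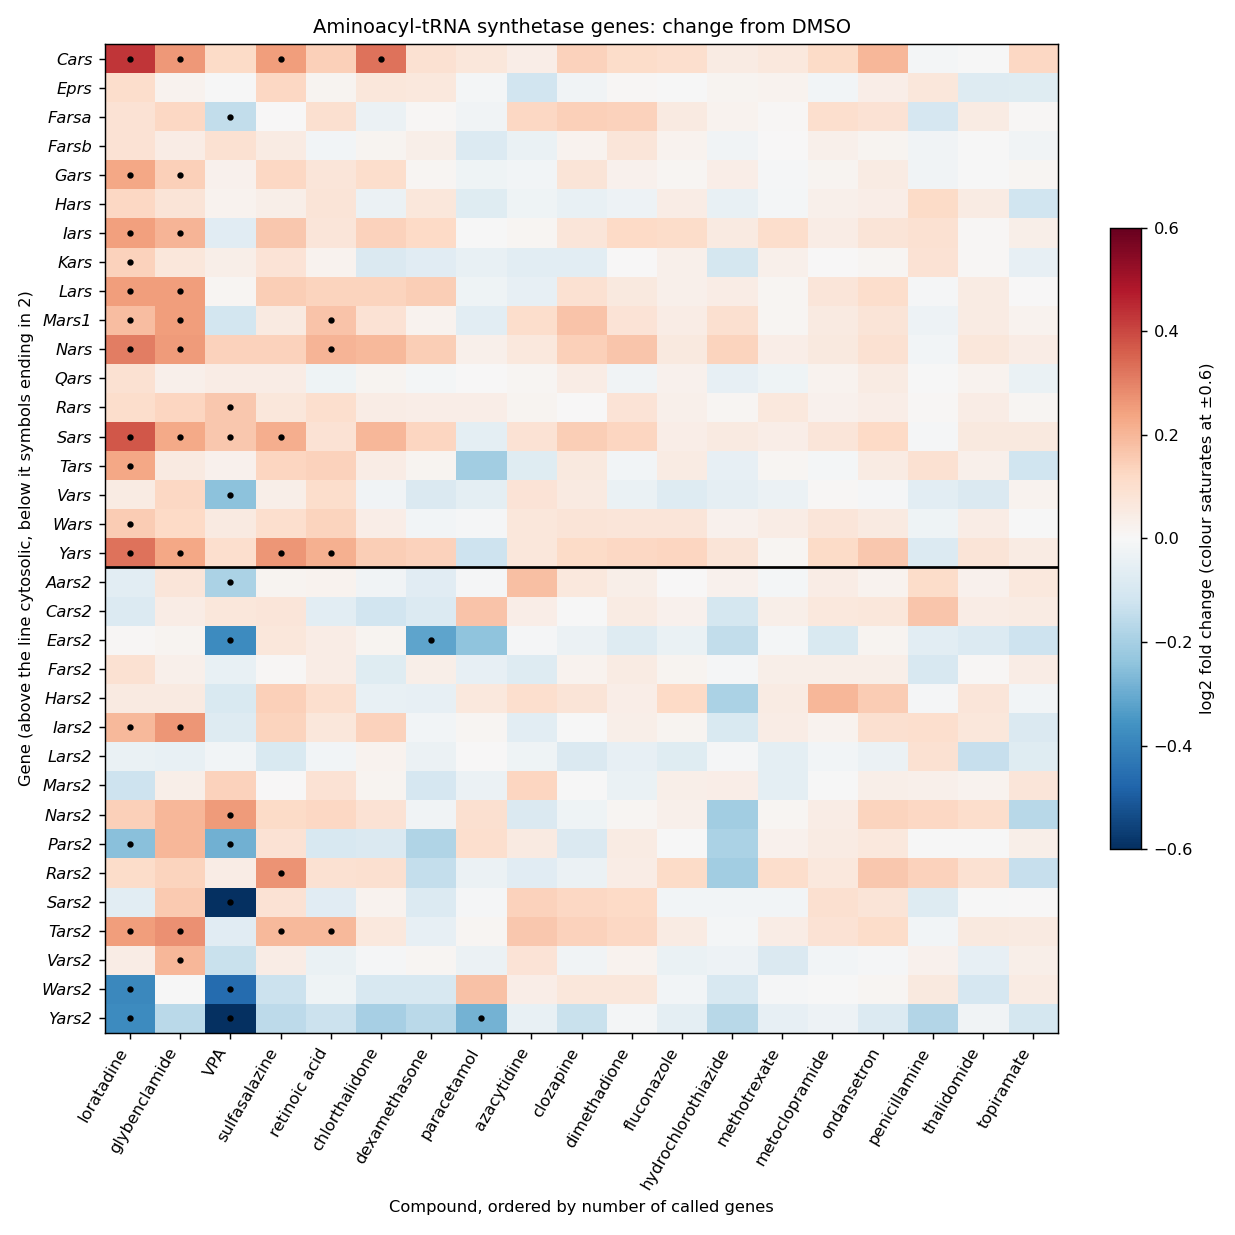
Log2 fold change from DMSO of the 34 synthetase genes (rows, cytosolic above the line and mitochondrial below) for the 19 compounds (columns), each the mean of 3 arrays minus that of 3 DMSO arrays. Red is higher and blue lower, dots mark adjusted p under 0.05, and the loratadine column holds 11 dots above the line and 5 below it.

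The genes with no call were Eprs, Farsb (a phenylalanine enzyme subunit), Hars (histidine), Qars (glutamine), Cars2, Fars2, Hars2, Lars2 and Mars2. Their fold changes stayed between -0.19 and 0.20 on the log2 scale, the extremes both being those of Hars2. With the other 11 compounds limma called none of the 34 genes. The background there was 2.17% with hydrochlorothiazide, 1.31% with clozapine, 0.33% with ondansetron, 0.197% with metoclopramide, 0.119% with dimethadione and 0% with the remaining 6. At an unadjusted p under 0.05 the number of genes ran from 0 with methotrexate to 7 (20.6%) with clozapine, hydrochlorothiazide and dimethadione. Of all probe sets, 6.59% had such a p with methotrexate, 9.72% with clozapine, 21.7% with hydrochlorothiazide and 10.4% with dimethadione.

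Among the cytosolic genes, loratadine gave 11 calls of 18, all higher. All 18 fold changes were positive, as were those of 8802 of the 21789 probe sets. The median of the 18 was 0.17 on the log2 scale, against -0.04 over all probe sets. These genes are bright, at percentiles 83.4 to 98.7 of mean signal, and the mitochondrial ones lie at 50.5 to 87.9. Signals were also more spread with loratadine than with DMSO. The part of brightness and spread in this median was not tested. For higher calls the background was 10.9% of probe sets. The gene with the largest change was Cars (cysteine). Its log2 signals were 10.63, 10.67 and 10.66 with loratadine, against 10.24, 10.16 and 10.26 with DMSO. The loratadine arrays lay wholly above the DMSO arrays, and the difference was 0.43 ± 0.05 (SE, n = 3 per group), a 1.35-fold rise, with a limma adjusted p of 1.63e-08.

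Sars (serine) read 12.27, 12.28 and 12.37 with loratadine and 11.98, 11.88 and 11.94 with DMSO, a rise of 0.37 ± 0.06 (limma adjusted p = 8.74e-06). Yars (tyrosine), whose promoter carries the motif, read 11.92, 11.86 and 11.87 against 11.56, 11.57 and 11.54, a rise of 0.33 ± 0.05 (adjusted p = 9.52e-07). Nars (asparagine) read 12.55, 12.55 and 12.59 against 12.25, 12.30 and 12.21, a rise of 0.31 ± 0.06 (adjusted p = 8.62e-05). In all 3 genes the groups did not overlap. Lars (leucine), whose product is also known as a leucine sensor upstream of mTORC1, read 11.71, 11.75 and 11.83 against 11.54, 11.45 and 11.54. It rose by 0.25 ± 0.06 (adjusted p = 0.00138).

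The other cytosolic calls with loratadine were smaller. Iars (isoleucine) rose by 0.25, Tars (threonine) and Gars by 0.23 each, and Mars1 (methionine) by 0.19. Wars (tryptophan) rose by 0.15 and Kars by 0.14. The second Iars probe set, fitted with all probe sets of the table, rose by 0.15. Of the 4 genes with the motif, the rises thus ran from 0.23 to 0.33. Cars and Sars (0.37) rose more than all 4. Cars has no window, and the window of Sars lacks the motif. Of the 9 genes with a window that rose, 4 (44.4%) held the motif. Without loratadine replicate 3, 11 genes in all were called instead of 16, and Kars, Mars1, Tars, Wars and Iars2 lost the call. Without loratadine replicate 1 or DMSO replicate 2, Kars, Tars and Iars2 lost it. Loratadine also moved feeder markers, 1 of 9 higher and 3 lower (backgrounds 10.9% and 8.26%), with a mean of 7.96 to 8.05 on its arrays against 8.01 to 8.09 with DMSO, and their part in the result was not tested. Further losses of a call were Kars without DMSO replicate 1, Wars without loratadine replicate 2, and Mars1, Wars and Pars2 without DMSO replicate 3.

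Glybenclamide raised 8 of the 18 cytosolic genes and lowered none, and all 18 fold changes were positive with a median of 0.13. Of the 21789 probe sets 9267 had a positive fold change, and the median over all was -0.03. The part of brightness and spread was not tested here either. The background for higher calls was 6.79%. Cars read 10.45, 10.51 and 10.49 with glybenclamide, against the DMSO values of 10.24, 10.16 and 10.26, and rose by 0.26 ± 0.05 (limma adjusted p = 0.000547). Nars read 12.44, 12.55 and 12.55 and rose by 0.26 ± 0.06 (adjusted p = 0.00204). For both genes the glybenclamide arrays lay above every DMSO array.

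Mars1, the enzyme for the amino acid that starts most proteins, read 11.69, 11.67 and 11.73 with glybenclamide, against 11.45, 11.51 and 11.38 with DMSO. It rose by 0.25 ± 0.05 (limma adjusted p = 0.00109). Lars read 11.72, 11.73 and 11.84 and rose by 0.25 ± 0.06 (adjusted p = 0.00278), and Yars read 11.80, 11.77 and 11.79 and rose by 0.23 ± 0.05 (adjusted p = 0.000699). None of these groups overlapped DMSO. Sars rose by 0.23, Iars by 0.21 and Gars by 0.14. The second Iars probe set did not pass the test with glybenclamide, and it rose by 0.16 with sulfasalazine, where the brightest one was not called. Leaving out glybenclamide replicate 3 left 7 of the 11 calls, without Gars, Iars, Sars and the mitochondrial Vars2. Gars also lost its call without glybenclamide replicate 2, DMSO replicate 1 or DMSO replicate 2, Iars and Sars without DMSO replicate 2, and Vars2 without glybenclamide replicate 1, DMSO replicate 1 or DMSO replicate 3.

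With sulfasalazine 3 cytosolic genes rose, all of them also called with loratadine (background for higher calls 5.4%). The 18 fold changes were again all positive (median 0.11). Over the 21789 probe sets 10329 were positive, with a median of -0.01, and the part of brightness and spread was again not tested. Yars read 11.79, 11.84 and 11.83, against 11.56, 11.57 and 11.54 with DMSO, a rise of 0.26 ± 0.05 (limma adjusted p = 0.000308). Cars read 10.47, 10.50 and 10.44 and rose by 0.25 ± 0.05 (adjusted p = 0.00211). Sars read 12.13, 12.19 and 12.15 and rose by 0.22 ± 0.06 (adjusted p = 0.0213). The sulfasalazine arrays lay above the DMSO arrays for all 3. Sars lost its call without sulfasalazine replicate 2 or DMSO replicate 2, as did the mitochondrial Rars2 and Tars2, so that 2 genes stayed called. Without sulfasalazine replicate 1, Rars2 and Tars2 lost the call and 3 genes were called, and without DMSO replicate 1 Tars2 lost it.

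Retinoic acid raised Yars (0.21), Nars (0.20) and Mars1 (0.17) among the cytosolic genes, and the mitochondrial Tars2 (0.19). The background for higher calls was 5.9%. Yars, the gene with the smallest adjusted p here (0.00142 in limma), kept its call whichever of the 6 arrays was left out. Mars1 lost its call without retinoic acid replicate 1 or 3 or DMSO replicate 1 or 3, Nars without retinoic acid replicate 2 or DMSO replicate 1 or 3, and Tars2 without retinoic acid replicate 1 or 3 or DMSO replicate 1 or 2. Without DMSO replicate 1, Yars was the only gene called. Chlorthalidone, a thiazide-like diuretic, raised 1 gene, Cars. It read 10.51, 10.56 and 10.58, all above the DMSO arrays, a rise of 0.33. Without chlorthalidone replicate 1, 2 genes were called.

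VPA gave 4 calls among the 18 cytosolic genes, 2 higher (11.1%, background 15.5%) and 2 lower (11.1%, background 11%). The share lies below the background for higher calls and near it for lower ones. The median fold change of the 18 was 0.03. Vars (valine) read 11.26, 11.33 and 11.29 with VPA, against 11.52, 11.54 and 11.56 with DMSO and fell by 0.24 ± 0.06 (limma adjusted p = 0.000805). Farsa (the other phenylalanine subunit) read 10.79, 10.84 and 10.80 against 10.96, 10.94 and 10.99 and fell by 0.15 ± 0.05 (adjusted p = 0.0242). In both genes the VPA arrays lay below the DMSO arrays. Sars read 12.06, 12.13 and 12.10, against 11.98, 11.88 and 11.94, and rose by 0.16 ± 0.06 (adjusted p = 0.0435). Rars (arginine) read 12.89, 12.88 and 12.91 against 12.73, 12.75 and 12.73 and rose by 0.16 ± 0.05 (adjusted p = 0.00828). Rars had a positive fold change with all 19 compounds, all taken against the same DMSO arrays, and passed the test with VPA alone. Farsa lost its call without VPA replicate 1, VPA replicate 3, DMSO replicate 1 or DMSO replicate 3. Sars lost it without VPA replicate 2 or 3 or DMSO replicate 2 or 3, and the mitochondrial Nars2 without DMSO replicate 2.

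**Figure D2:**
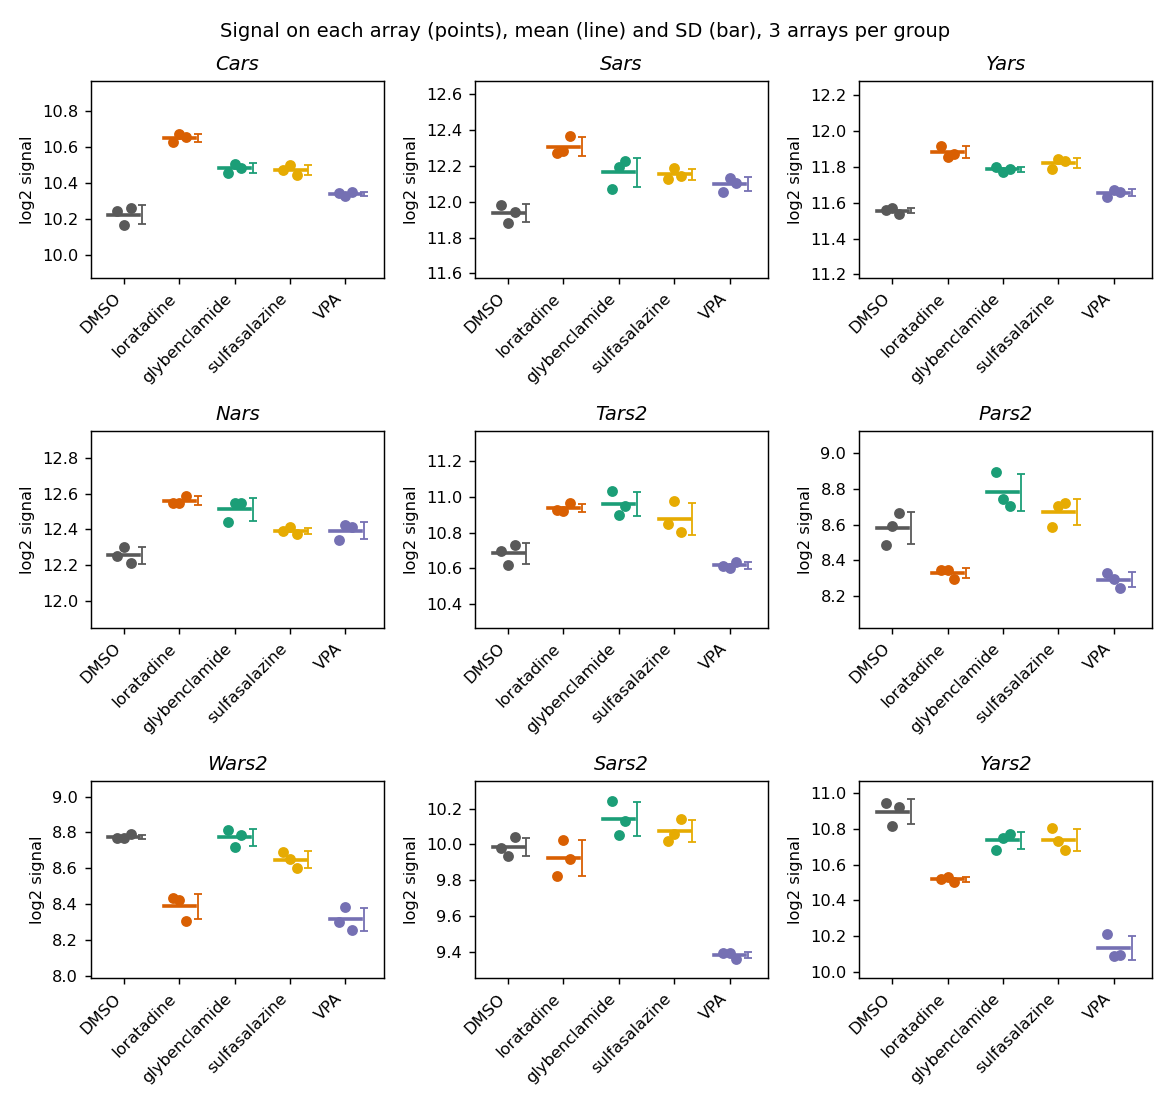
Log2 signal (vertical axis, each panel spanning the same range) on each array for 4 cytosolic and 5 mitochondrial synthetase genes with DMSO, loratadine, glybenclamide, sulfasalazine and VPA. Points are arrays, lines are means and bars are SD (n = 3), and the loratadine points lie above DMSO for Cars, Sars, Yars, Nars and Tars2 and below it for Pars2, Wars2 and Yars2.

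The mitochondrial genes had calls in both directions. Loratadine raised 2 of 16 (12.5%) and lowered 3 (18.8%), and the median fold change of the 16 was -0.02. Of all probe sets, 10.9% were higher and 8.26% lower, so the share that rose lies near its background. Wars2, the mitochondrial tryptophan enzyme, read 8.43, 8.42 and 8.31 with loratadine, against 8.77, 8.77 and 8.79 with DMSO. It fell by 0.39 ± 0.06 (limma adjusted p = 2.24e-06). Yars2, the mitochondrial tyrosine enzyme, in which human mutations cause myopathy with anaemia, read 10.52, 10.53 and 10.50 against 10.95, 10.82 and 10.92. It fell by 0.38 ± 0.07 (adjusted p = 0.000122), and neither gene overlapped DMSO. Pars2 (proline) also fell by 0.25. The genes that rose were Tars2 (threonine), by 0.25, and Iars2 (isoleucine), by 0.20.

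Glybenclamide raised 3 mitochondrial genes (18.8%, background for higher calls 6.79%) and lowered none. Tars2 read 11.03, 10.90 and 10.95, against 10.70, 10.62 and 10.73 with DMSO, and rose by 0.28 ± 0.06 (limma adjusted p = 0.00118). Iars2 read 10.45, 10.46 and 10.55 against 10.26, 10.19 and 10.23 and rose by 0.26 ± 0.06 (adjusted p = 0.00253). Both lay above DMSO on every array, and Vars2 rose by 0.20. Sulfasalazine raised 2 mitochondrial genes (12.5%, background for higher calls 5.4%). With sulfasalazine, Rars2 read 10.14, 10.06 and 10.01 against 9.86, 9.66 and 9.89, a rise of 0.27 ± 0.08 (adjusted p = 0.0242). Tars2 read 10.85, 10.98 and 10.81 with sulfasalazine, again above DMSO, and rose by 0.19 ± 0.06 (adjusted p = 0.0341). Tars2 was thus called higher with loratadine, glybenclamide, sulfasalazine and retinoic acid, which is the set of compounds that raised Yars. Over the 20 group means Tars2 was most like the cytosolic Wars (r = 0.85, a description over groups that share the platform and the cell line).

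The largest changes of any synthetase gene were falls with VPA, where 6 mitochondrial genes fell and 1 rose. The background for lower calls was 11% of probe sets. Yars2 read 10.21, 10.09 and 10.10 with VPA, against 10.95, 10.82 and 10.92 with DMSO and fell by 0.76 ± 0.07, to 0.59 of the DMSO level (limma adjusted p = 8.35e-12). Sars2 (serine) read 9.39, 9.39 and 9.36 against 9.98, 9.94 and 10.04 and fell by 0.60 ± 0.09, to 0.66 of the DMSO level (adjusted p = 2.61e-07). Both genes were lower on every VPA array than on any DMSO array. The log2 fold changes of the others that fell were -0.46 for Wars2, -0.38 for Ears2 (glutamate), -0.29 for Pars2 and -0.19 for Aars2 (alanine). Nars2 (asparagine) rose by 0.26. VPA also lowered 6 of the 10 stem cell markers (background for lower calls 11%), and their mean signal lay between 11.86 and 11.90 on the VPA arrays, against 12.14 to 12.16 on the DMSO arrays. The mean of the 9 feeder markers was 7.98 to 8.05 with VPA and 8.01 to 8.09 with DMSO. The part of these shifts in the synthetase result was not tested.

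Yars2 had a negative fold change with all 19 compounds, measured against the same 3 DMSO arrays. It passed the test with VPA, loratadine and paracetamol, in which it fell by 0.28 (background for lower calls 4.15%). Paracetamol also lowered 7 of the 10 stem cell markers, whose mean signal was 11.95 to 11.96 on its arrays against 12.14 to 12.16 with DMSO. The part of that shift in the change of Yars2 was not tested. Without DMSO replicate 1 or paracetamol replicate 2, no synthetase gene was called with paracetamol. Without paracetamol replicate 1 or 3 or DMSO replicate 2 there were 2. Ears2 fell by 0.32 with dexamethasone, a glucocorticoid (background for lower calls 4.74%), reading 8.69, 8.96 and 8.59 against 9.01, 9.13 and 9.04. That call was lost without dexamethasone replicate 3, DMSO replicate 2 or DMSO replicate 3, and with either of these DMSO arrays left out no gene was called. Without dexamethasone replicate 1 or 2 the number called was 3.

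In the deposited values the medians of the cytosolic and the mitochondrial genes parted most with loratadine, though not on each array. The gap was 0.13 on loratadine replicate 2, below that on hydrochlorothiazide replicate 1 (0.16) and VPA replicate 1 (0.14), for example. Under quantile normalisation the gap with VPA was 0.18, so the order may depend on the scaling. The median difference from the DMSO mean over the 18 cytosolic genes was 0.19, 0.17 and 0.21 on the 3 loratadine arrays. Over the 16 mitochondrial genes it was -0.05, 0.05 and 0.0033. With VPA the cytosolic medians were 0.03, 0.02 and 0.04 and the mitochondrial ones -0.11, -0.08 and -0.08. With glybenclamide both were positive, 0.12, 0.13 and 0.15 for the cytosolic genes and 0.09, 0.06 and 0.05 for the mitochondrial ones. With hydrochlorothiazide the cytosolic medians were 0.00079, 0.0086 and 0.07 and the mitochondrial ones -0.16, -0.07 and 0.0059. With dexamethasone they were 0.0049, 0.03 and 0.10 and -0.11, -0.10 and -0.05. The gap between the medians of the fold changes was 0.11 with VPA and with dexamethasone, and for hydrochlorothiazide, with no gene called, the medians were 0.02 and -0.09. The low spread of signals on hydrochlorothiazide replicates 1 and 2 and dexamethasone replicate 3 stands beside these values, and its part in them was not tested. The percentiles of mean signal given above also differ between the cytosolic and the mitochondrial genes, and their part was not tested.

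**Figure D3:**
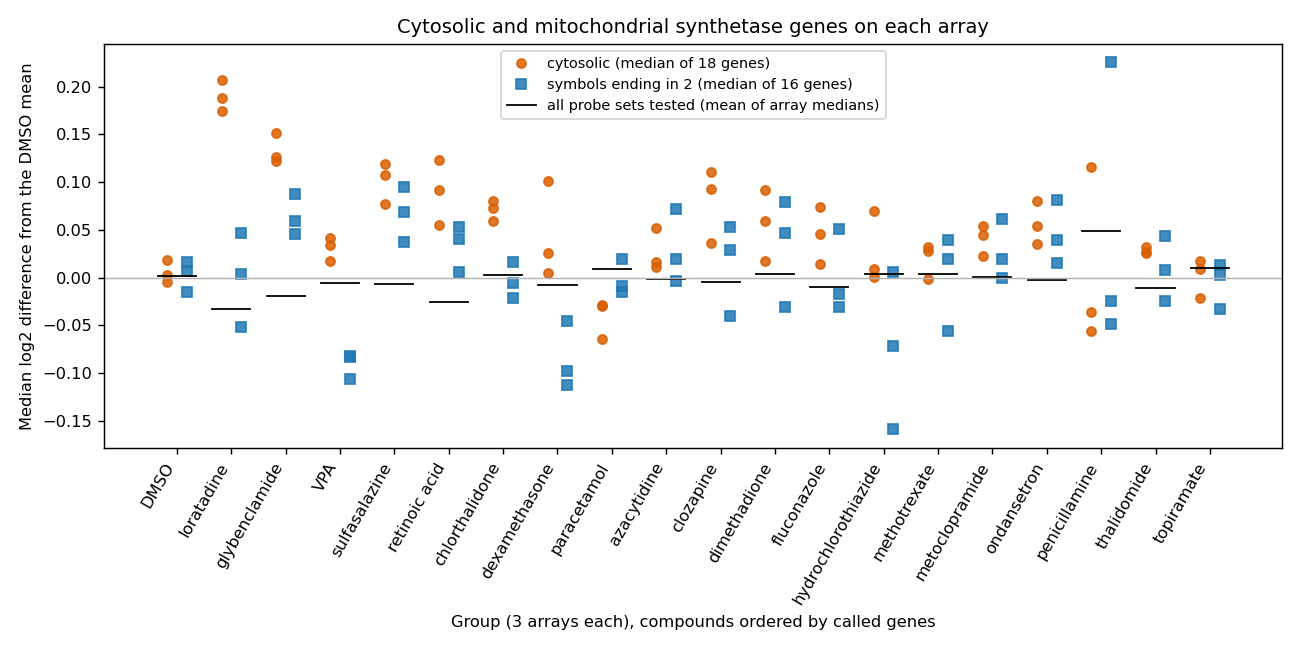
Median log2 difference from the DMSO mean (vertical axis) on each array over the 18 cytosolic genes (circles) and the 16 mitochondrial genes (squares), for DMSO and the 19 compounds, with the mean of the array medians over all probe sets as a black line. The loratadine circles lie between 0.17 and 0.21, the VPA squares between -0.11 and -0.08, and penicillamine replicate 2, with a mitochondrial median of 0.23, also has a median of 0.16 over all probe sets.

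For 15 amino acids a cytosolic and a mitochondrial gene could be set against each other within each array, with Eprs used for both glutamate and proline. With loratadine the cytosolic gene gained on its mitochondrial counterpart in 12 of 15 pairs, by a median of 0.16 on the log2 scale. In 7 pairs every loratadine array exceeded every DMSO array, and in the other 8 the arrays overlapped. How many pairs of other genes part in this way was not counted, and loratadine changed 19.2% of all probe sets. The largest gain was that of Yars over Yars2, at 0.74, 0.67 and 0.71 on the 3 loratadine arrays (mean 0.70), against -0.05, 0.09 and -0.04 on the DMSO arrays. Wars gained 0.54 on Wars2, Cars 0.51 on Cars2 and Sars 0.44 on Sars2. An exact two-sided permutation test gave p = 0.1 in each of the 7 pairs, the smallest that 3 arrays against 3 allow, and 0.214 after Benjamini-Hochberg adjustment over the 15 pairs. This test cannot reach 0.05 with so few arrays.

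The same differences with VPA are a description, added after the values were seen. In 7 pairs every VPA array exceeded the DMSO arrays, in 3 every VPA array was lower, and in 5 they overlapped. Pairs of other genes were again not counted, and VPA changed 26.5% of all probe sets. Yars gained 0.86 on Yars2 and Sars 0.77 on Sars2, with the mitochondrial gene lower in both. The pairs for arginine, isoleucine and asparagine overlapped DMSO with either compound.

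**Figure D4:**
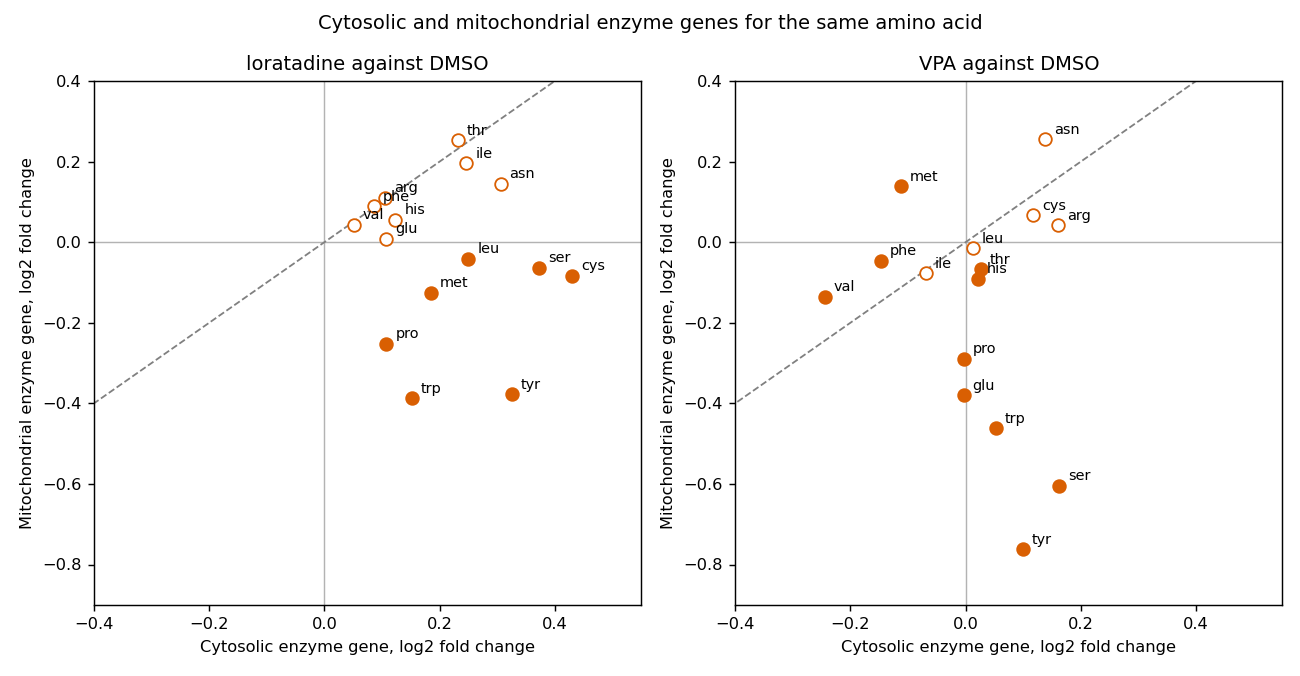
Log2 fold change from DMSO of the cytosolic gene (horizontal axis) and the mitochondrial gene (vertical axis) for the same amino acid, with loratadine on the left and VPA on the right. The dashed line marks equal change, filled circles are pairs whose within-array difference does not overlap DMSO (7 of 15 with loratadine, 10 of 15 with VPA), and open circles are pairs that overlap.

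Direct contrasts were fitted between the 4 compounds with the most called probe sets in the whole table, at the differing doses given above. Between loratadine and VPA 18 of the 34 genes differed (background 29.4%). Of these, 17 were lower with VPA (background for lower 13.6%), 11 of them cytosolic, and Mars2 was higher by 0.26. The difference, VPA minus loratadine, was -0.32 ± 0.05 for Iars (limma adjusted p = 8.88e-06), -0.31 for Cars and -0.54 for Sars2. Between glybenclamide and VPA 17 genes differed, all lower with VPA (background 28.9%, for lower 14.1%), led by Sars2 at -0.76 and Yars2 at -0.60. Between VPA and retinoic acid 12 genes differed, all lower with VPA (background 33.1%, for lower 14.7%), which is 35.3% of the 34.

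Loratadine and glybenclamide differed in 3 genes, or 8.82% of the 34, near the background of 6.81%. Cars was higher with loratadine by 0.17 ± 0.05 (limma adjusted p = 0.0378). Pars2 and Wars2 were lower with loratadine, with differences of -0.45 ± 0.07 (adjusted p = 2.51e-05) and -0.39 ± 0.06 (adjusted p = 1.06e-05). The Wars2 arrays with glybenclamide read 8.81, 8.72 and 8.79, around those of DMSO. For the other 31 genes no difference was called between them, which does not show that they act alike. Loratadine and retinoic acid differed in 7 genes, or 20.6% of the 34, the same share as over all probe sets (20.6%). Cars, Gars, Iars and Sars were higher and Mars2, Wars2 and Yars2 lower with loratadine. Retinoic acid and glybenclamide differed in 3, Iars2, Pars2 and Vars2, all lower with retinoic acid (background 13.1%, for lower 7.29%). That is 8.82% of the 34, below the background in either direction and near that for lower.

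No synthetase gene was called between the teratogens and the non-teratogens. With the compound as the unit, 10 teratogens against 9 non-teratogens, limma called 0 of 34 genes and 0% of all probe sets. At an unadjusted p under 0.05 there were 3, Cars, Gars and Lars, or 8.82% against 4.38% of all probe sets. The difference, teratogens minus non-teratogens, was -0.13 ± 0.04 for Cars (limma adjusted p = 0.976), -0.08 for Lars and -0.07 for Gars.

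The cytosolic genes varied together more than the mitochondrial ones. Over the 20 group means, Pearson's r had a median of 0.51 over 153 pairs of cytosolic genes, 0.20 over 120 pairs of mitochondrial genes and 0.14 over 288 mixed pairs. Cars was most like Gars (r = 0.92), as was Sars (r = 0.91), and Sars2 was most like Yars2 (r = 0.83). Pars2 and Wars2 were most like each other (r = 0.74), and the median r of Wars2 to the cytosolic genes was -0.42. These values describe groups that share a platform and a cell line, and no test was made. The cytosolic genes are also brighter, at the percentiles given above. Their residual SD between arrays ran from 0.04 to 0.09, and that of the mitochondrial genes from 0.06 to 0.11. The part of brightness and of this spread in the values of r was not tested.

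Around the synthetases, scaffold proteins hold several cytosolic enzymes in the multisynthetase complex. None of their 3 measured genes was called higher with loratadine, glybenclamide, sulfasalazine, retinoic acid or VPA. With loratadine Aimp1 (0.11) and Eef1e1 (-0.05) were not called. Of the 3 scaffold genes, Aimp2 fell by 0.36 with loratadine, fell by 0.29 with retinoic acid and fell by 0.33 with VPA, and Eef1e1 fell by 0.33 with VPA. The backgrounds for lower calls were 8.26%, 3.92% and 11% with these compounds. With glybenclamide and sulfasalazine limma called none of the 3. At an unadjusted p under 0.05 there was 1 with glybenclamide and 0 with sulfasalazine. The mitochondrion makes glutaminyl-tRNA through the GatCAB amidotransferase, and of the 4 genes for this step and for initiator formylation, Gatc fell by 0.20 with loratadine. Gatb rose by 0.35 with glybenclamide. With VPA Mtfmt rose by 0.24 and Qrsl1 fell by 0.31. The backgrounds were 8.26% lower with loratadine, 6.79% higher with glybenclamide, and 15.5% higher and 11% lower with VPA.

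Of 7 measured genes for other charging and proofreading steps, 4 rose with loratadine and none fell. They were Pstk (0.41) of the selenocysteine route, Aarsd1 (0.28), an editing protein for mischarged alanyl-tRNA, and the D-aminoacyl-tRNA deacylases Dtd2 (0.22) and Dtd1 (0.17). With sulfasalazine 4 of the 7 rose, with VPA 3 and with glybenclamide 2. Of all probe sets, 10.9% were called higher with loratadine, 5.4% with sulfasalazine, 15.5% with VPA and 6.79% with glybenclamide. None of the 4 cytosolic elongation factor genes, which act downstream of charging, was called by limma with loratadine, glybenclamide, VPA, sulfasalazine or retinoic acid, and none had an unadjusted p under 0.05. Of the 4 mitochondrial elongation factor genes, Gfm2 alone rose, by 0.20 with loratadine and by 0.22 with sulfasalazine (backgrounds for higher calls 10.9% and 5.4%).

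The ATF4 branch is a list of 15 genes, the factor and its known targets. With loratadine 12 of 15 rose and none fell (background for higher calls 10.9%), with a median of 0.42, led by Ddit3, which encodes CHOP (1.58), Chac1, a glutathione-degrading enzyme (1.55), Trib3 (0.93) and Ddit4 (0.79). With glybenclamide 9 rose (background 6.79%), with sulfasalazine 9 (5.4%) and with retinoic acid 5 (5.9%). With chlorthalidone, where Cars was the only synthetase gene called, 7 rose (1.44%). With compounds that raised no synthetase gene, 4 rose with dexamethasone (1.51%), 3 with ondansetron (0.289%) and 2 with clozapine (1.1%). Chac1 was higher by 0.93 with glybenclamide, by 1.37 with sulfasalazine and by 0.51 with retinoic acid. Atf4 itself rose by 0.64, 0.42, 0.53 and 0.19 with loratadine, glybenclamide, sulfasalazine and retinoic acid. With VPA 3 rose (Asns, Psat1 and Chac1), a share near the 15.5% of all probe sets, and Atf4 fell by 0.22. Of the 3 measured genes of starvation sensing (Eif2ak4, which encodes the kinase GCN2 that binds uncharged tRNA, its co-activator Gcn1 and its inhibitor Impact), limma called none with the first 4 compounds. At an unadjusted p under 0.05 there were 2 with glybenclamide and 0 with the others. With VPA Eif2ak4 rose by 0.20 and Gcn1 fell by 0.21.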

How the data were processed

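Biotin-labelled cDNA from total RNA was hybridised to the arrays, per the labels. The values deposited by the authors are log2 signals per probe set, made with RMA per the submitters' processing notes. Its version and options, and the genome build, were not given in the sources used here. RMA usually includes normalisation between arrays, after which a shift shared by all genes would not show, although the spread of the deposited values still differs between arrays. The log2 values were used as deposited in a linear model of all 60 arrays (limma 3.58.1, R 4.3.3, lmFit and eBayes, 40 residual degrees of freedom), with Benjamini-Hochberg adjustment within each contrast. The limma comparison with DMSO was checked on simulated data with independent noise and no differences in spread between arrays. The other tests were not checked in this way.

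Per-array values are given for the 5 cytosolic and 2 mitochondrial called genes with the largest change in each of the 4 compounds with most called synthetase genes. Cars with chlorthalidone and Ears2 with dexamethasone were added after their values were seen. From each related list the 4 called genes with the largest change with loratadine were taken, and others named were also chosen after their values were seen. The synthetase genes and the lists were chosen with earlier results of these data known. All 34 genes matched RefSeq by Entrez identifier. Alternatives covered the normalisation, the probe sets tested, the model, covariates, the reference, the arrays and the probe set per gene.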

Additional observations from a re-analysis of the deposited data

How the results depend on the processing

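All 50 called fold changes kept their direction under each of the 9 alternatives and with any array left out. For several alternatives this was fixed in advance. The fold change itself is the same over the brighter or all probe sets, with the 6 arrays alone and with trend and robust eBayes. Averaging probe sets per gene could alter that of Iars alone. The number still called was 47 after quantile normalisation, 50 over the brighter probe sets, 49 over all probe sets, 37 with the 6 arrays of a comparison alone, 50 with trend and robust eBayes and 50 with a covariate for the letter b found in some titles. It was 40 with the interquartile range as covariate, 43 with the other 18 compounds averaged as the reference and 50 with probe sets averaged per gene. With a DMSO array left out 119 of 150 held, and with a compound array left out 119 of 150. No paired analysis was possible because the labels give the arrays no replicate numbers.

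Numbers of genes called that moved by over 1.5 times were as follows. Under quantile normalisation chlorthalidone had 6, dexamethasone 5 and paracetamol 3. Over the brighter probe sets they had 4, 2 and 4, with trend and robust eBayes 3, 2 and 3, and with the interquartile range as covariate 4, 0 and 4. With probe sets averaged per gene chlorthalidone had 2 and paracetamol 2, and with the letter b paracetamol had 4. With 6 arrays alone glybenclamide had 7, sulfasalazine 3, retinoic acid 0 and dexamethasone 0. Sulfasalazine had 2 with the interquartile range. Against the other 18 compounds VPA had 17, paracetamol 7, dexamethasone 4 and sulfasalazine 3. The causes were not tested. With single arrays left out the number ran from 11 to 15 for loratadine, 7 to 12 for glybenclamide, 9 to 10 for VPA, 2 to 6 for sulfasalazine, 1 to 3 for retinoic acid, 1 to 2 for chlorthalidone, 0 to 3 for dexamethasone and 0 to 2 for paracetamol.

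The cytosolic minus mitochondrial median was 0.18 with loratadine (0.16 to 0.20 with single arrays left out) and 0.11 with VPA (0.10 to 0.13). Under quantile normalisation it was 0.18 with VPA, 0.10 with glybenclamide (0.06 as deposited) and 0.083 with dexamethasone (0.11 as deposited). Against the other 18 compounds it was 0.020 with glybenclamide, 0.072 with dexamethasone and 0.0047 with sulfasalazine (0.04 against DMSO). Without Gars, Kars and Qars it was 0.14 with dexamethasone. With single arrays left out it ran from 0.045 to 0.10 with glybenclamide, 0.043 to 0.080 with chlorthalidone, 0.04 to 0.10 with retinoic acid, 0.02 to 0.07 with sulfasalazine, 0.11 to 0.13 with dexamethasone and -0.05 to -0.01 with paracetamol. Quantile normalisation moved the median of all probe sets by at most 0.04, and changed the share of calls that were higher by over 10 points with dexamethasone alone, from 24.2% to 39.4%. Most changes here are small, and 3 arrays per group limit what can be told apart.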

Other observations

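The probe set that lists both Aars, the alanine enzyme, and Exosc6 belongs to no single gene. Tested with all probe sets of the table in limma, it was called with 5 compounds: higher with loratadine (0.25 ± 0.04, SE, n = 3 per group), glybenclamide (0.15), sulfasalazine (0.15) and chlorthalidone (0.15), and lower with VPA (-0.12). Its fold change was positive with 13 of 19 compounds. Which of the genes it reports cannot be told from these values.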
